A study of Mus musculus with 8 samples.

Results

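The 8 arrays of this series were divided into 2 sides, replicates 1 and 2 against replicates 3 and 4. Each side holds 4 arrays, 2 from wild type (WT) and 2 from Glis3KO2, so genotype could be kept as a covariate. The sides were drawn by the replicate number in the sample titles, a rule that uses no measured value, although it was proposed with earlier results of these data known. Together they take in all 8 of 8 arrays. The labels do not say what that number marks.

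All samples were RNA of Thy1+ testis cells from untreated C57BL/6 pups at postnatal day 4, kept with their mother. Sorting for the surface protein Thy1 enriches the stem and progenitor spermatogonia, and the labels call the cells testis spermatogonial progenitors. Glis3 is a Krüppel-like zinc finger transcription factor, and the sources used here give the mutant only by the name Glis3KO2, with no description of the allele. The design text counts 3 testes per genotype and the labels list 4 samples of each. Nothing says that samples came from separate animals, so every p-value rests on a spread between samples that may be technical.

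The testis of a newborn mouse holds spermatogonia inside seminiferous cords, together with Sertoli cells, which nurse the germ cells and set their niche. Peritubular myoid cells, a smooth-muscle-like layer, wrap the cords, and the space between them holds Leydig cells, fibroblast-like stroma, vessels and macrophages. Because Thy1 is also carried by some stromal cells and by T lymphocytes, a Thy1+ fraction can hold several of these cell types. In bulk RNA of this kind, fewer cells of a type and less RNA per cell cannot be told apart.

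Replicates 1 and 2 were the brighter arrays. The 75th percentile of the processed signal, a linear intensity, was 355, 533, 374 and 458 in WT replicates 1 and 2 and Glis3KO2 replicates 1 and 2. It was 243, 272, 251 and 341 in WT replicates 3 and 4 and Glis3KO2 replicates 3 and 4, so the sides did not overlap. Replicates 1 and 2 were 1.55-fold brighter, with means on the log2 scale of 8.73 ± 0.27 and 8.10 ± 0.22 (SD, n = 4 each). The log2 difference, replicates 3 and 4 minus replicates 1 and 2, was -0.76 within WT and -0.50 within Glis3KO2. A two-sided exact permutation of the side labels within each genotype gave p = 0.0556 over 36 arrangements, which is the smallest that this design allows.

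The control features differed in the same direction by a smaller amount. The bright-corner control spots, which receive a control oligonucleotide and no sample RNA, were 1.13-fold brighter in replicates 1 and 2 (log2 difference -0.17, exact permutation p = 0.0556, the smallest possible). They read 50436 to 57469 in replicates 1 and 2 and 45110 to 49024 in replicates 3 and 4, again without overlap. Local background was 64 to 68 in replicates 1 and 2 and 57 to 66 in replicates 3 and 4, overlapping only across genotypes. It was 67.5 and 68 against 66 and 66 in WT, and 64 and 64 against 58 and 57 in Glis3KO2. The difference was -4.1 (exact permutation p = 0.0556, the smallest possible). The share of spots well above background overlapped between the sides, at 86.0% to 90.3% against 86.4% to 87.6% (exact permutation p = 0.389). No spot was saturated on any array.

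**Figure D1:**
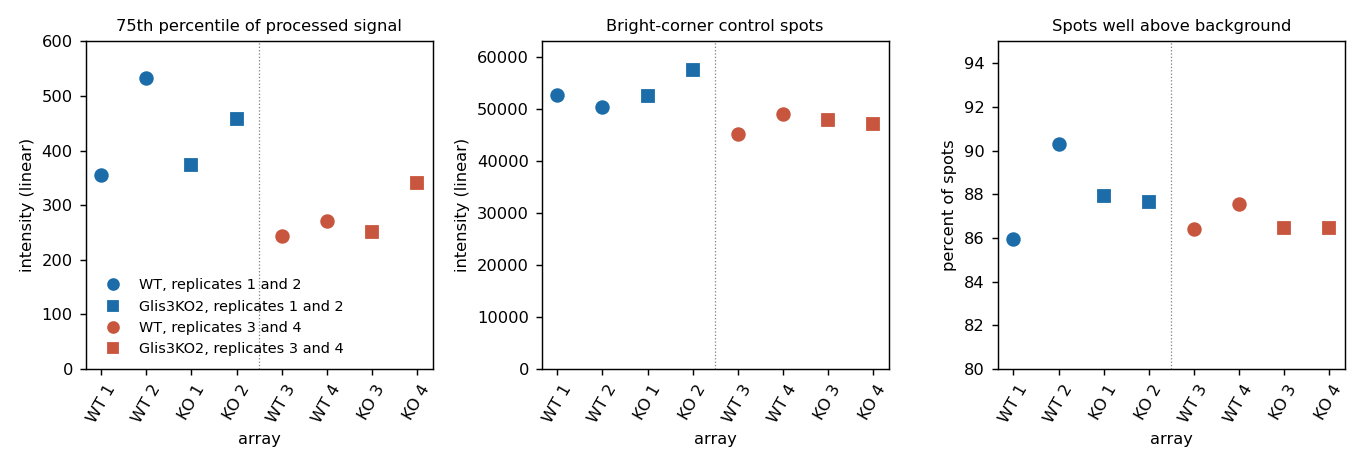
Brightness of the 8 arrays, with circles for WT, squares for Glis3KO2, blue for replicates 1 and 2 and red for replicates 3 and 4. The left and middle panels show linear intensities and the right panel the percent of spots well above background on an axis that does not start at 0. All 4 arrays of replicates 1 and 2 lie above all 4 of replicates 3 and 4 in the left and middle panels, and the sides overlap in the right panel.

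Each of 2 slides held both sides and both genotypes. Slide 1 carried replicates 1 and 3 and slide 2 replicates 2 and 4, and each slide was scanned once at the same photomultiplier setting. The brightness difference was -0.56 within slide 1 and -0.70 within slide 2. Replicates 1 and 2 always lay at positions 1 or 3 of a slide and replicates 3 and 4 at positions 2 or 4, so odd or even position and side cannot be told apart. Over all genes, WT replicates 3 and 4 stood apart from the other 6 arrays along the leading principal component (32.3% of the variance). Values within Glis3KO2, which leave those 2 arrays out, are therefore given beside the results on gene groups. Markers of several cell types were detected. Of the measured general germ cell genes, 27 of 28 were well above background on all 8 arrays. So were 30 of 30 Sertoli, 24 of 24 smooth muscle, 33 of 35 stroma and 25 of 25 macrophage genes. The same held for 21 of 21 lymphocyte and 18 of 18 epididymal and mesonephric genes. Measured genes had already passed a filter of at least 4 of 8 arrays well above background. These counts therefore do not check the labelled cell type.

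All gene values below are log2 signals after each array's 75th percentile was subtracted, so that 0 is an array's own 75th percentile and the overall brightness is already removed. A difference is always replicates 3 and 4 minus replicates 1 and 2, with genotype in the model. When a gene's 4 values per side are listed, they run WT, WT, Glis3KO2, Glis3KO2 in rising replicate number.

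No single gene passed the test across the 17512 genes (limma with Benjamini-Hochberg adjustment at 0.05; 0% called), and the smallest adjusted p was 0.0871, shared by Rimkla and 2 genes with provisional symbols. At an unadjusted p under 0.05, limma gave 2836 genes, 16.2% of those tested, against 876 that this threshold would give on average with no difference. Of these, 1378 (7.87%) were higher and 1458 (8.33%) lower in replicates 3 and 4. Under another background correction (normexp with the same scaling) the split was 356 higher and 709 lower. Without Glis3KO2 replicate 3, 15 genes passed the adjusted threshold, and without WT replicate 2, 1 gene did. Without WT replicate 3 or WT replicate 4 the higher count at unadjusted p was 855 or 877. The median difference over all genes was 0.07, 0.12 within WT and -0.01 within Glis3KO2.

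The 2 genotypes read the same contrast from different arrays, but with the same replicate numbers on the same slides. Same-numbered samples correlated across genotypes (r from 0.13 to 0.34 in deviations from the genotype means), so the 2 readings are not independent. Across the 17512 genes, which are not independent replicates, the difference within WT and that within Glis3KO2 correlated at r = 0.31, and 60.7% of genes had the same sign in both. The spread of differences was wider within WT (SD 0.76 across genes) than within Glis3KO2 (SD 0.55). At unadjusted p under 0.05, 17.6% of genes differed within WT and 6.10% within Glis3KO2, with 0 passing adjustment in either (limma). The interaction of side and genotype gave 0 genes after adjustment (0% called; smallest adjusted p = 0.322) and 1266 (7.23%) at unadjusted p under 0.05.

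**Figure D2:**
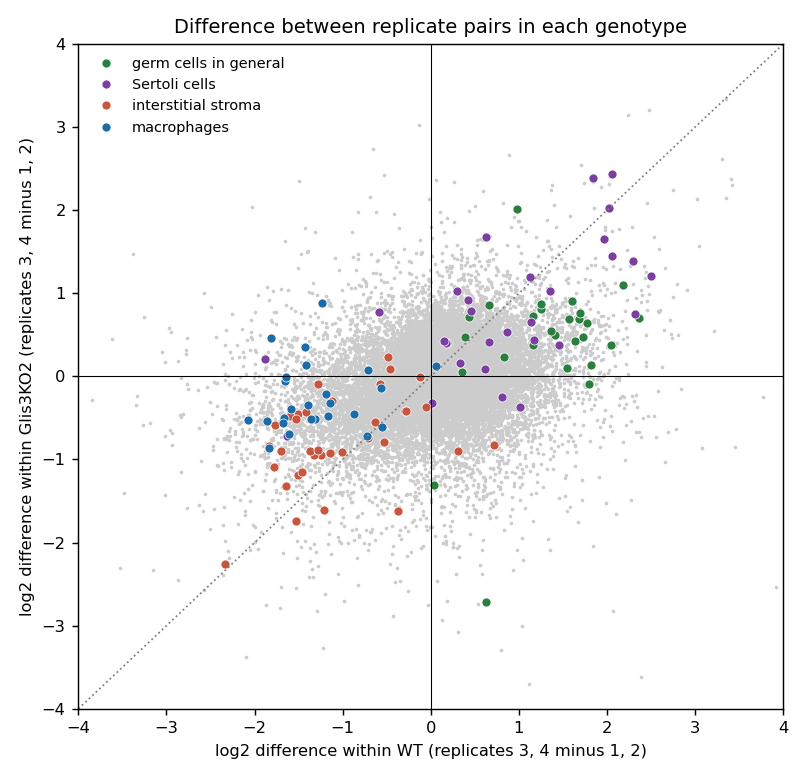
Difference between the sides within WT (x axis) and within Glis3KO2 (y axis), in log2 units, for 17512 genes in grey, with 15 genes outside the plotted range. Germ cell (green) and Sertoli cell (purple) genes lie mostly at the upper right, and stroma (red) and macrophage (blue) genes mostly in the lower left. The dotted line marks equal differences in both genotypes, and most germ cell genes lie below it.

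Germ cell genes were higher in replicates 3 and 4. Of 31 listed general germ cell genes, 28 were measured, and 26 of those 28 had a higher mean in replicates 3 and 4, where 56.5% of all genes did. Their median difference was 0.97, against 0.07 over all genes. At unadjusted p under 0.05, 21 of 28 were higher (7.87% of all genes) and 0 lower, and 0 passed adjustment over all genes (limma). The median was 1.39 within WT and 0.52 within Glis3KO2, and 17 of 28 had both arrays of replicates 3 and 4 above both others in each genotype (8.03% of all genes). All 4 arrays of replicates 3 and 4 lay above the other 4 for 7 of 28 (4.25% of all genes). Dppa3 and Brdt, picked out here for their sign, were the 2 lower members, at -1.04 and -0.63. Rnf17, Sycp3 and Sohlh1 were not measured.

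The array values show how the genotypes differ in this group. Centred on each gene's mean over 8 arrays, the general germ cell list averaged -0.40, -0.19, -0.38 and -0.71 in replicates 1 and 2. In replicates 3 and 4 it averaged 0.71, 1.24, -0.16 and -0.11. The WT arrays of replicates 3 and 4 were the highest by a wide margin, while the Glis3KO2 arrays of replicates 3 and 4 were above all of replicates 1 and 2 by a small one. For 8 of the 28 genes the interaction of side and genotype had an unadjusted p under 0.05, where 7.23% of all genes did. None passed adjustment.

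**Figure D3:**
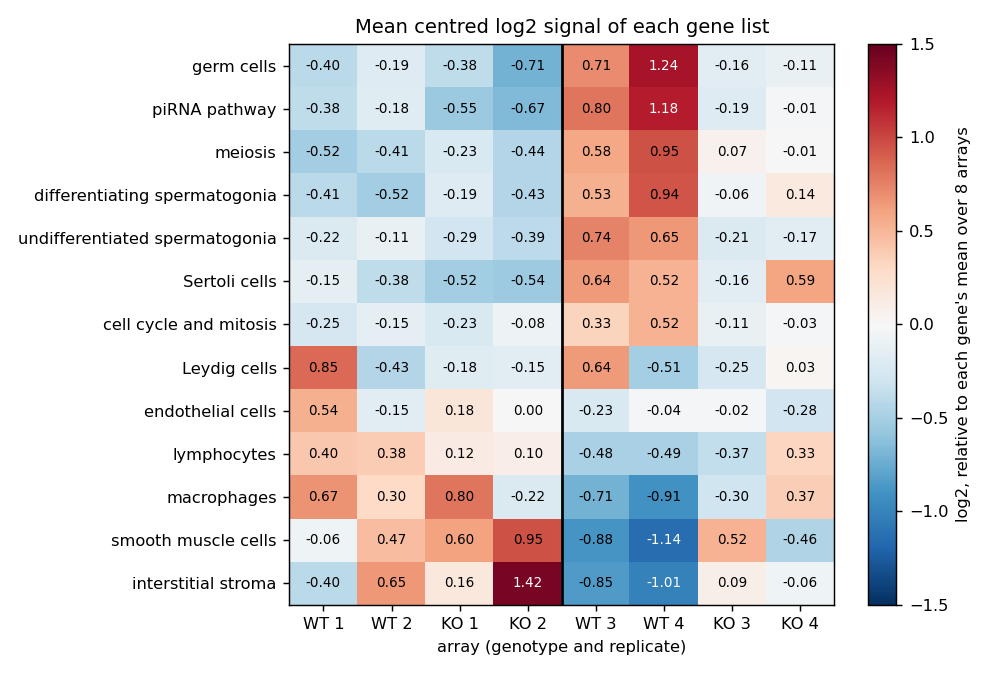
Mean centred log2 signal of 13 gene lists (rows) on each array (columns), with replicates 1 and 2 left of the black line and replicates 3 and 4 right of it. Red is above and blue below each gene's mean over 8 arrays. The germ cell list is highest in WT replicates 3 and 4, where the stroma list is lowest at -0.85 and -1.01, and the Sertoli list is high in those arrays and in Glis3KO2 replicate 4.

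Dazl, an RNA-binding protein that licenses germ cells for further development, was at 3.74, 4.24, 4.39 and 3.96 in replicates 1 and 2. In replicates 3 and 4 it was at 5.45, 5.90, 4.88 and 4.86, so all 4 arrays lay above the other 4. The difference was 1.19 (SE 0.28, limma adjusted p = 0.165), with 1.68 within WT and 0.69 within Glis3KO2. Ddx4, the Vasa RNA helicase of germ granules, was at 1.80, 2.22, 1.97 and 1.84 against 3.48, 4.17, 2.02 and 2.07. The sides differed by 1.82 within WT and by 0.14 within Glis3KO2, and they overlapped. Its difference was 0.98 (SE 0.36, limma adjusted p = 0.250) and its interaction had an unadjusted p of 0.00721, which did not survive adjustment.

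Genes of the piRNA pathway, which silences transposons in male germ cells, were higher in 18 of 18 measured members of 21 listed. Their median difference was 1.01 (1.56 within WT, 0.48 within Glis3KO2), and 13 of 18 had an unadjusted p under 0.05 (7.87% of all genes in this direction). Of the 18, 10 also stand in another list, mostly that of general germ cell genes, so the lists are not separate evidence. Asz1, a mitochondrial scaffold of piRNA processing, was at -2.86, -1.71, -2.04 and -2.75 in replicates 1 and 2 and at 0.06, -0.26, -1.27 and -1.31 in replicates 3 and 4. All 4 arrays of one side lay above the other, by 1.64 (SE 0.34, limma adjusted p = 0.160), or 0.89 with normexp. The tudor domain protein Tdrd5 differed by 1.63 (1.01 with normexp) and the helicase Mov10l1, which starts piRNA processing, by 1.13. Mybl1, a transcription factor of spermatocytes that was picked out as the lowest member, was at 0.00.

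The promoters of these genes were read because the members lay on the same side in both genotypes. The windows run from 250 bases before to 50 after each start, from RefSeq on GRCm38.p6, with 1 chromosome not used. The palindrome CACGTG, which reads alike on both strands and was not checked for overlap with other motifs, stood in 17 of 31 windows of the general germ cell list (22 of its 28 measured genes had a window). It stood in 8.79% of the 17379 windows of all genes measured and in 7.15% of all 32851 windows. It stood in 10 of 22 windows of the piRNA list, 7 of 23 of the meiosis list and 3 of 22 of the Sertoli list. In the smooth muscle list it stood in 0 of 21 windows and in the stroma list in 2 of 26, both of the same gene. A gene can have several windows, which may overlap, so windows are not separate genes. The 31, 22 and 23 windows of the germ cell, piRNA and meiosis lists came from 22, 15 and 19 genes. A match is a description of the letters, and the motif was picked with the knowledge that promoters of germ cell genes often carry it. The windows of Mael, Tdrd1 and Mov10l1 are shown as examples of genes named here, 5′ to 3′ on the gene's strand, with the match in capitals. They are at chr1:166238695-166238994 (minus strand), chr19:56825959-56826258 (plus strand) and chr15:88982744-88983043 (plus strand).
Mael: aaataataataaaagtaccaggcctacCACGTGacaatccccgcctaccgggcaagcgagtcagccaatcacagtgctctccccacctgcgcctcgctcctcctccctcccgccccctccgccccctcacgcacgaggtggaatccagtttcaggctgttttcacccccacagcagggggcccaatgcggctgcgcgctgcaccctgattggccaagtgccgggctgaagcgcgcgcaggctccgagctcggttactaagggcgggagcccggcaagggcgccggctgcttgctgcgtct
Tdrd1: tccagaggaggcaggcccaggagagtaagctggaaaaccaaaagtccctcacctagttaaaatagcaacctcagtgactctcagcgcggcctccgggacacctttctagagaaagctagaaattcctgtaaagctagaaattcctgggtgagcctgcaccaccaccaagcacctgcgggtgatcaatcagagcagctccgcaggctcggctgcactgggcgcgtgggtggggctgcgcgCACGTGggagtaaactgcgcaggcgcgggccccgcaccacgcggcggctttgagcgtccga
Mov10l1: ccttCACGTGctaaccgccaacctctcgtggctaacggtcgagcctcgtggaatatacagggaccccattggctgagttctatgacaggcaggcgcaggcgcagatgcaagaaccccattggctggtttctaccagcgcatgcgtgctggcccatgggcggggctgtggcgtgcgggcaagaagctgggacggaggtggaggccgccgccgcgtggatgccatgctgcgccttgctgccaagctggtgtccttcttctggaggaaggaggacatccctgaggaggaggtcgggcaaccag
The match begins 223 bases before the start in Mael, 11 in Tdrd1 and 246 in Mov10l1.

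Mael, a piRNA factor that localises to germ granules, was at 0.59, 0.79, 0.39 and 0.39 in replicates 1 and 2 and at 1.98, 2.68, 1.08 and 0.56 in replicates 3 and 4. Glis3KO2 replicate 4 lay below WT replicates 1 and 2, so the sides overlapped. The difference was 1.04 (SE 0.31, limma adjusted p = 0.202). Tdrd1, a tudor protein that binds PIWI proteins, was at 1.21, 0.82, 0.51 and 0.26 against 2.56, 2.85, 1.47 and 0.82. Within each genotype replicates 3 and 4 were both above replicates 1 and 2, and the difference was 1.22 (SE 0.28, limma adjusted p = 0.165).

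Meiosis genes were higher in 22 of 22 measured members of 27 listed, with a median of 0.78 (1.19 within WT, 0.33 within Glis3KO2). An unadjusted p under 0.05 was reached by 10 of 22 (7.87% of all genes in this direction). Sycp1, the transverse filament of the synaptonemal complex, was at -0.17, -0.04, 0.35 and 0.28 against 1.42, 2.24, 1.02 and 0.81, with no overlap. Its difference was 1.27 (SE 0.32, limma adjusted p = 0.177). The meiotic cohesin subunits Stag3 and Smc1b differed by 1.11 and 1.15, also with no overlap. Mei4, needed for meiotic DNA breaks, differed by 1.55, but by 0.33 with normexp background correction, and the list's median was then 0.36. Of the 22 genes, 7 were in the dimmest quartile of all genes.

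Spermatogonial genes followed the same direction with smaller differences. Of 33 listed genes of undifferentiated spermatogonia 31 were measured, with 26 higher and a median of 0.54 (0.81 within WT, 0.23 within Glis3KO2). At unadjusted p under 0.05, 9 of 31 were higher (7.87% of all genes). Gfra1 and Ret, the receptor pair for the niche factor GDNF, differed by 0.70 (SE 0.24) and 1.47 (SE 0.56), but by 0.30 and 0.32 with normexp background correction. The median of the list was then 0.26. Etv5, a GDNF-induced transcription factor, was at -0.65, -1.001, -0.82 and -0.97 in replicates 1 and 2 and at 0.77, 0.66, -0.53 and -1.06 in replicates 3 and 4. Only its WT arrays of replicates 3 and 4 stood apart, so the difference was 1.54 within WT and 0.10 within Glis3KO2. Over all arrays it was 0.82, and 0.54 with normexp. Id4 and Nanos2, 2 regulators of the stem cell state, were higher within WT (1.40 and 1.09) and had values of -0.33 and -0.30 within Glis3KO2. Another kept probe of Id4 had the opposite sign.

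Foxo1, a transcription factor needed to keep spermatogonial stem cells, was at 1.20, 0.92, 1.41 and 1.36 against 2.19, 2.34, 1.63 and 2.34. It was 1 of 2 list members (of 31 measured) with no overlap, where 4.25% of all genes were higher without overlap. The other was Sall4, a zinc finger factor of spermatogonia. Foxo1 differed by 0.90 (SE 0.24, limma adjusted p = 0.185) and Sall4 by 0.72 (SE 0.21, limma adjusted p = 0.200). Utf1, a chromatin protein of early spermatogonia, differed by 0.24.

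Among 15 measured genes of differentiating spermatogonia, of 17 listed, 14 were higher, with a median of 0.78 (1.03 within WT, 0.38 within Glis3KO2). With normexp the median was 0.41. Dmrt1, a transcription factor shared by germ and Sertoli cells, was at -1.66, -1.10, -0.49 and -1.79 against 0.94, 1.31, -0.19 and 0.32. The sides did not overlap, and it differed by 1.85 (SE 0.38, limma adjusted p = 0.158). Sohlh2, a transcription factor of spermatogonial differentiation, differed by 0.93, and Stra8, induced by retinoic acid at the onset of differentiation and meiosis, by 0.75. The single lower member was the retinoic acid receptor Rarg, at -0.84 (SE 0.25, limma adjusted p = 0.200). Pluripotency factors had a smaller median of 0.24 over 21 genes (0.37 within WT, 0.26 within Glis3KO2), 17 of them higher. At unadjusted p under 0.05, 5 of 21 were higher (7.87% of all genes) and 2 lower (8.33%) (limma). The members ran from -1.75 to 1.31, so the list was mixed. Dppa4, a chromatin protein of pluripotent cells, differed by 1.31, but by 0.34 with normexp, and Dppa5a, a marker of pluripotent and germ cells, by 0.76.

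Sertoli cell genes were higher in replicates 3 and 4 too. Of 32 listed, 30 were measured, 26 of them higher, with a median of 0.69 (0.84 within WT, 0.70 within Glis3KO2). An unadjusted p under 0.05 was reached by 15 of 30 in the higher (7.87% of all genes) and 1 of 30 in the lower direction (8.33%). No overlap was found for 7 of 30 (4.25% of all genes), and 12 of 30 were higher without overlap in each genotype (8.03%). Unlike the germ cell list, the Sertoli list had medians of similar size in both genotypes, though whether the lists differ in this was not tested. Its centred means were -0.15, -0.38, -0.52 and -0.54 in replicates 1 and 2 and 0.64, 0.52, -0.16 and 0.59 in replicates 3 and 4. Glis3KO2 replicate 3 was the low one among the latter.

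Mro, a gene of early Sertoli cells, was at -0.49, -0.34, -1.37 and -0.36 in replicates 1 and 2 and at 1.68, 1.52, 0.53 and 1.79 in replicates 3 and 4. No array of one side reached the other, and the difference was 2.02 (SE 0.33, limma adjusted p = 0.110), 2.02 in each genotype. Dhh, the Hedgehog ligand that Sertoli cells send to the interstitium, was at -1.71, -1.30, -3.23 and -2.01 against 0.68, -0.01, -1.18 and 0.71, a difference of 2.11 (SE 0.45, limma adjusted p = 0.160; 1.36 with normexp). Sox8, a transcription factor close to Sox9, differed by 1.84 (1.04 with normexp) and Inhbb, the inhibin and activin beta B subunit, by 1.81, both without overlap. A pair of canonical Sertoli genes was less separated. Sox9, a transcription factor of the Sertoli lineage, was at 0.71, -0.33, 0.73 and -0.33 against 1.39, 1.27, -0.26 and 1.96. Its difference was 0.89 (SE 0.49), with -0.16 within slide 1. Amh, anti-Müllerian hormone, differed by 0.24 (SE 0.19), with overlapping sides.

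Hsd17b3, the enzyme that makes testosterone from androstenedione, stood out in the Leydig list. It was at 1.22, 0.40, -0.70 and -0.45 in replicates 1 and 2 and at 3.73, 2.85, 1.31 and 3.94 in replicates 3 and 4. All of one side lay above the other, by 2.84 (SE 0.53, limma adjusted p = 0.131), with 2.48 within WT and 3.20 within Glis3KO2. In the fetal mouse testis this enzyme is known from Sertoli cells. The other Leydig genes did not go with it: 12 of 18 measured, of 20 listed, were lower, and the median was -0.22, but -0.58 within WT and 0.03 within Glis3KO2, where 9 were higher and 9 lower. Cyp11a1, which starts steroid synthesis from cholesterol, was at 2.86, 0.58, 0.85 and 0.87 against 2.24, -0.59, 0.87 and 0.51, with wide overlap. Star, which brings cholesterol into mitochondria, differed by -0.07 (0.04 with normexp) and Hsd3b1, a later enzyme of the pathway, by -0.66 (SE 0.56). Insl3 was not measured.

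**Figure D4:**
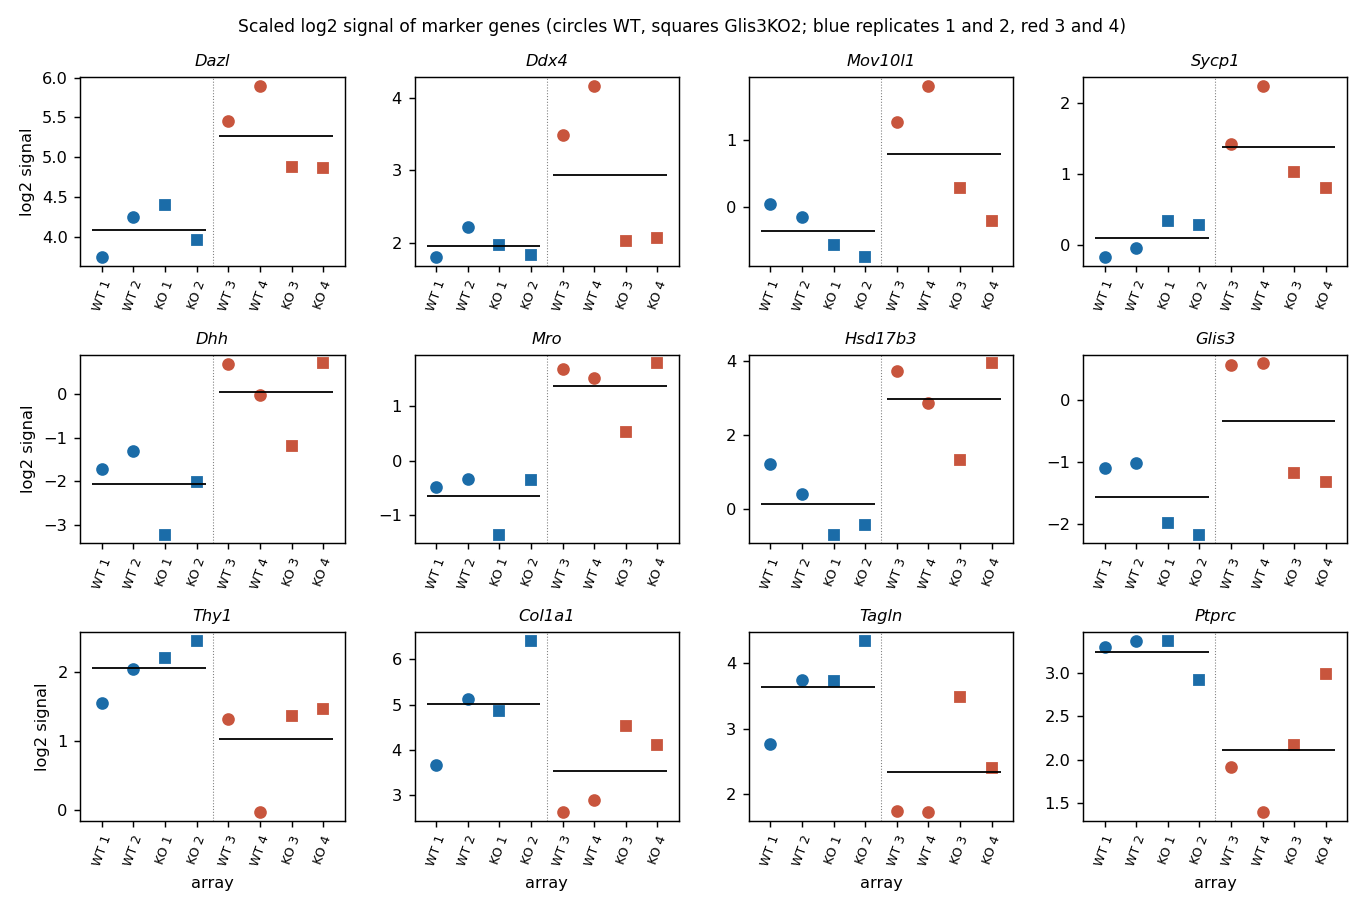
Scaled log2 signal of 12 genes on the 8 arrays, with circles for WT, squares for Glis3KO2, blue for replicates 1 and 2, red for replicates 3 and 4, and a bar at the mean of each side. Dazl, Sycp1, Dhh, Mro and Hsd17b3 do not overlap between the sides and are higher in replicates 3 and 4, and Thy1 does not overlap and is lower. For Ddx4 the WT arrays differ by 1.82 and the Glis3KO2 arrays by 0.14.

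Smooth muscle and peritubular myoid genes were lower in replicates 3 and 4 for 24 of 24 members (43.5% of all genes were), with a median of -0.92. An unadjusted p under 0.05 was reached by 16 of 24 (8.33% of all genes in this direction). The median was -1.11 within WT and -0.84 within Glis3KO2, and 6 of 24 were lower in each genotype without overlap (6.56% of all genes). No member had all 4 arrays of replicates 3 and 4 below the other 4 (3.61% of all genes). The list averaged -0.06, 0.47, 0.60 and 0.95 in replicates 1 and 2 and -0.88, -1.14, 0.52 and -0.46 in replicates 3 and 4. Glis3KO2 replicate 3 lay above 2 of the 4 arrays of replicates 1 and 2. Within slide 1 the median was -0.50 and within slide 2 -1.47.

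Tagln, an actin-binding protein of smooth muscle, was at 2.76, 3.74, 3.73 and 4.34 against 1.74, 1.72, 3.48 and 2.40, a difference of -1.31 (SE 0.33, limma adjusted p = 0.177). Within each genotype replicates 3 and 4 were both lower, but Glis3KO2 replicate 3 exceeded WT replicate 1. Tpm2, muscle tropomyosin, differed by -1.71 (SE 0.37, limma adjusted p = 0.163), and Cald1 (caldesmon) and Csrp1, both actin-associated, by -1.27 and -1.12. Myh11, smooth muscle myosin, was at 4.60, 4.74, 5.19 and 5.51 against 2.86, 2.46, 5.31 and 3.52. Its sides overlapped through Glis3KO2 replicate 3, and the difference was -1.47 (SE 0.40). Acta2, smooth muscle actin, differed by -0.72 (SE 0.26), and another of its kept probes had the opposite sign.

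Interstitial stroma genes were lower for 35 of 35 members, with a median of -1.02 (-1.25 within WT, -0.83 within Glis3KO2). An unadjusted p under 0.05 was reached by 19 of 35 (8.33% of all genes), and 14 of 35 were lower without overlap in each genotype (6.56% of all genes). The median was -0.27 within slide 1 and -1.53 within slide 2, so the difference was larger on the slide that carried replicates 2 and 4. The list averaged -0.40, 0.65, 0.16 and 1.42 in replicates 1 and 2 and -0.85, -1.01, 0.09 and -0.06 in replicates 3 and 4. Glis3KO2 replicate 2 was the highest array and WT replicate 1 was low for its side.

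Col1a1, the main chain of type I collagen, was at 3.66, 5.13, 4.86 and 6.41 against 2.62, 2.89, 4.53 and 4.11. Replicates 3 and 4 were both lower in each genotype, while the sides overlapped across genotypes. The difference was -1.48 (SE 0.41, limma adjusted p = 0.189). Nr2f1, an orphan nuclear receptor of mesenchyme, had the largest difference of the list at -2.30 (SE 0.38, limma adjusted p = 0.110). Mfap4, a microfibril protein, differed by -1.43, Mgp, a matrix protein that inhibits calcification, by -1.03, and the growth factor Igf1 by -0.96. Igf1 and Thy1 were the 2 of 35 with no overlap between the sides, a share near the 3.61% of all genes. Pdgfra, a receptor of interstitial progenitors, differed by -0.92, and Dcn, the proteoglycan decorin, by -1.34 (SE 0.59).

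Thy1, the protein used for the isolation, belonged to the genes that were lower in replicates 3 and 4. It was at 1.55, 2.05, 2.21 and 2.46 in replicates 1 and 2 and at 1.33, -0.03, 1.36 and 1.47 in replicates 3 and 4. No array of replicates 3 and 4 reached the other side, and WT replicate 4 was far below the rest. The difference was -1.03 (SE 0.31, limma adjusted p = 0.200), with -1.15 within WT and -0.92 within Glis3KO2.

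Glis3 itself was higher in replicates 3 and 4 of both genotypes. Its single kept probe was at -1.09 and -1.01 in WT replicates 1 and 2 and at 0.57 and 0.60 in WT replicates 3 and 4. In Glis3KO2 it was at -1.98 and -2.18 and at -1.18 and -1.32. Within each genotype the replicate pairs were tight and did not overlap, and in each replicate number WT was above Glis3KO2. The difference between the sides was 1.23 (SE 0.23, limma adjusted p = 0.131), with 1.64 within WT and 0.83 within Glis3KO2. Where this probe lies relative to the mutation is not stated, and it may therefore be no check of the genotype. With normexp background correction the difference was 0.85.

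**Figure D5:**
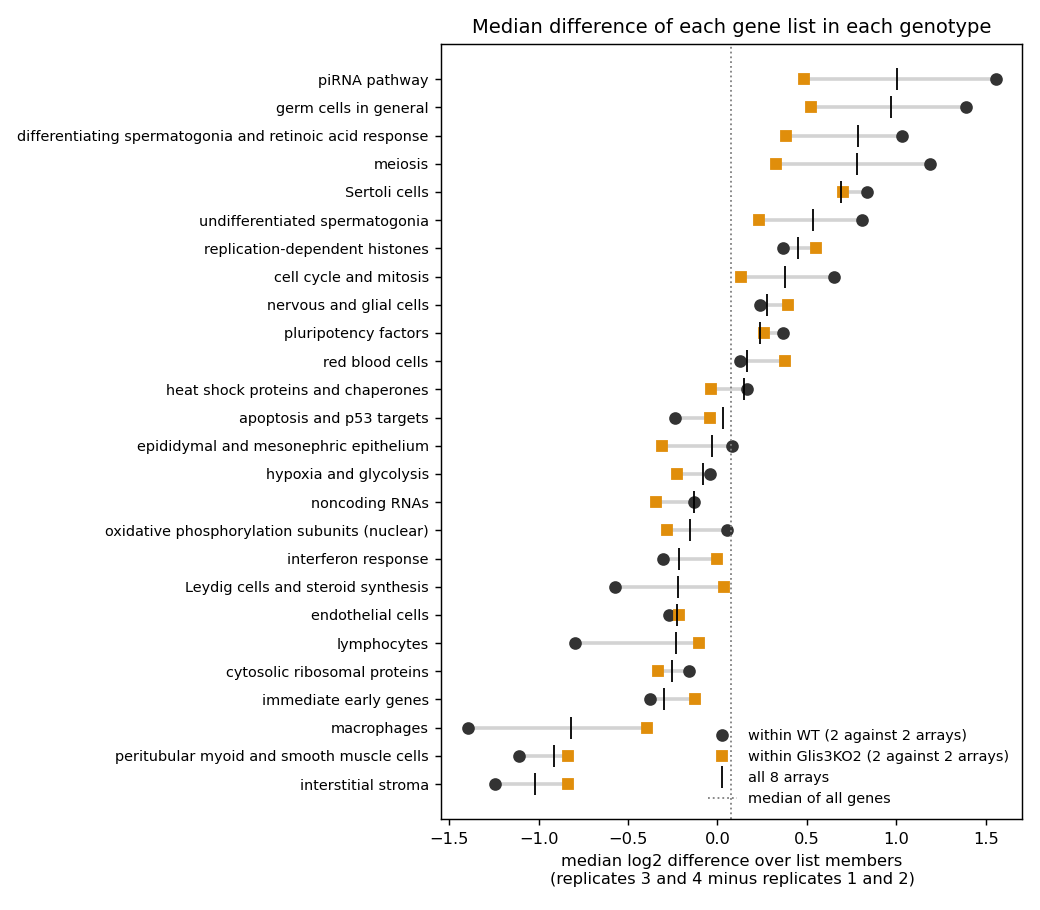
Median log2 difference (replicates 3 and 4 minus replicates 1 and 2) of 26 gene lists within WT (circles) and within Glis3KO2 (squares), with a tick for all 8 arrays and a dotted line at the median of all genes, 0.07. The piRNA and general germ cell lists have the highest medians over 8 arrays, and stroma, smooth muscle and macrophage lists the lowest, each on the same side of 0 in both genotypes. Within Glis3KO2 the Sertoli list is highest at 0.70.

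Macrophage genes were lower for 24 of 25 measured members of 26 listed, with a median of -0.82, and 11 of 25 had an unadjusted p under 0.05 (8.33% of all genes). Counts without overlap were near those of all genes, at 2 of 25 in each genotype (6.56%) and 1 of 25 between the sides (3.61%). The difference was larger within WT (-1.40) than within Glis3KO2 (-0.39), and larger within slide 1 (-1.25) than within slide 2 (-0.39). The list averaged 0.67, 0.30, 0.80 and -0.22 in replicates 1 and 2 and -0.71, -0.91, -0.30 and 0.37 in replicates 3 and 4, so Glis3KO2 replicates 2 and 4 overlapped the other side. Ptprc, the pan-leukocyte protein CD45, was at 3.30, 3.36, 3.37 and 2.91 against 1.91, 1.39, 2.16 and 2.98. Glis3KO2 replicate 4 overlapped the other side, and the difference was -1.12 (SE 0.31, limma adjusted p = 0.190). The calcium-binding protein Aif1 differed by -1.20, the protease Ctss by -0.99, the receptor Csf1r by -0.86 (SE 0.46; -0.55 with normexp) and Cd68, a lysosomal protein, by -0.58 (SE 0.33; -0.36 with normexp).

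Lymphocyte genes were mostly lower. Of 21 measured members of 22 listed 16 were lower, with a median of -0.23 (-0.80 within WT, -0.11 within Glis3KO2). At unadjusted p under 0.05, 8 of 21 were lower (8.33% of all genes). Il7r, a cytokine receptor of T cells and innate lymphocytes, was at 2.40, 1.23, 1.69 and 1.21 against -0.04, -0.64, 0.55 and 0.49. The sides did not overlap, and the difference was -1.54 (SE 0.36, limma adjusted p = 0.165). Gzma and Nkg7, of cytotoxic cells, differed by -1.40 and -1.53, and the T cell receptor subunit Cd3e by -0.82.

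Endothelial genes were mixed, with 14 of 24 lower and a median of -0.22 (-0.27 within WT, -0.21 within Glis3KO2). Within each genotype 16 of 24 were lower. At unadjusted p under 0.05, 5 of 24 were lower (8.33% of all genes) and 1 higher (7.87%) (limma). Of the 24 genes, 11 were in the dimmest quartile of all genes. Kdr, a VEGF receptor, was at -0.65, -2.06, -0.36 and -0.31 against -2.53, -2.49, -1.84 and -2.32, with WT replicate 2 overlapping the other side, a difference of -1.45 (SE 0.32, limma adjusted p = 0.165). Flt1, another VEGF receptor, had a value of 0.73 (SE 0.26), but of 0.076 with normexp. Ecscr, an endothelial surface protein, was not well above background on any array of replicates 3 and 4 and was at least 2.68-fold lower there. It passed the filter on dim probes only through replicates 1 and 2, so a difference was built into its selection, and with normexp it was -0.47. For such a probe the bound sets the mean of the bright side against the higher of each dim array's own value and its lowest signal well above background. Cdh5, the endothelial cadherin, differed by -0.67 (SE 0.29), and the adhesion protein Pecam1 by 0.16 (SE 0.37; -0.13 with normexp).

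Cell cycle genes were higher for 29 of 34 measured members of 35 listed, with a median of 0.38 (0.65 within WT, 0.13 within Glis3KO2). At unadjusted p under 0.05, 9 of 34 were higher (7.87% of all genes). Mcm3, a subunit of the replicative helicase, was at -0.24, 0.02, 0.35 and 0.14 against 1.08, 1.23, 0.54 and 0.39, a difference of 0.74 (SE 0.26). Cenpe, a kinetochore motor, differed by 0.95 and the spindle checkpoint kinase Bub1b by 0.77.

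The 10 genes of smallest p in each direction, with provisional symbols passed over, had adjusted values between 0.0871 and 0.104 in the higher and 0.104 and 0.110 in the lower direction (limma), so none passed. Rimkla, an enzyme that makes N-acetylaspartylglutamate, was at -4.03, -4.01, -4.01 and -3.77 against -1.52, -1.03, -2.20 and -1.11, a difference of 2.49 (SE 0.28). Cpeb1, which controls translation of stored mRNA in germ cells, was at -1.54, -1.42, -0.73 and -1.05 against 0.21, 0.81, 0.58 and 0.23, a difference of 1.64 (SE 0.25). The other 8 higher genes were Cstdc1, Plppr4, the alpha-catenin Ctnna2, Ahsg (fetuin-A), Atp8b5, Tcte2, Ssxb2 and the glutamate transporter Slc1a6, with differences from 1.26 to 2.96. With normexp background correction the 10 differences ran from 0.22 to 1.40. Cstdc1 and Plppr4 were well above background on 1 of 4 arrays of replicates 1 and 2.

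Aqp1, a water channel, had the largest difference among the 10 lower genes of smallest p that were above background on all 8 arrays, at 0.52, 1.19, 0.56 and 0.88 against -3.11, -2.23, -2.38 and -0.80. The sides did not overlap, and the difference was -2.92 (SE 0.42, limma adjusted p = 0.104). Ptn, the secreted growth factor pleiotrophin, was at 3.50, 3.95, 4.50 and 5.71 against 1.56, 1.85, 3.37 and 3.25, a difference of -1.91 (SE 0.29). Bhlhe22, a basic helix-loop-helix repressor, differed by -4.51 (SE 0.76), was above background on 2 of 4 arrays of replicates 3 and 4, and was at -2.02 with normexp. The other lower genes were the calcium sensor Ncald, the LIM domain protein Tes, Frmd7, Cpxm2, Cltrn, Calml4 and the stromal receptor Nr2f1 named above. All 10 lower genes kept their sign with normexp, at -2.04 to -0.82.

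The genes with the smallest interaction p, whose difference depended most on genotype, did not pass the test. Akr1c18, an enzyme that inactivates progesterone, was well above background on 2 of 4 arrays of each side, so no difference is given for it. Btla, an inhibitory receptor of lymphocytes, differed by -1.66 within WT and 1.63 within Glis3KO2, and Txk, a T cell kinase, by -2.09 and 0.43. Slc28a2, a nucleoside transporter, was at -0.54 and 0.20 in WT replicates 1 and 2 and at -3.51 and -3.49 in WT replicates 3 and 4, while all 4 Glis3KO2 arrays lay between -2.23 and -1.76. Its difference over all arrays was -1.78, and -0.83 with normexp. Their interaction p-values were at most 0.000314 unadjusted (limma), and the smallest adjusted over all genes was 0.322.

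The differences also depended on how bright a gene was. In the dimmest quartile of genes the median difference was 0.20, and 2.88% were lower at unadjusted p under 0.05. In the brightest quartile the median was -0.01, and 12.4% were lower. In the dimmest quartile were 2 of 28 germ cell, 2 of 30 Sertoli and 0 of 24 smooth muscle genes. So were 8 of 31 genes of undifferentiated spermatogonia and 7 of 22 meiosis genes. Median levels were 1.46, 1.36 and 1.12 in the lower smooth muscle, macrophage and stroma lists. The higher piRNA, germ cell, Sertoli, meiosis and undifferentiated lists were dimmer, at 0.29, 0.04, -0.04, -0.69 and -0.82. Other lists went against this order. Cell cycle and histone lists were higher at levels of 1.14 and 1.796, and lymphocyte and endothelial lists lower at -1.45 and -2.31. On detection alone, 24 probes were well above background on all 4 arrays of replicates 1 and 2 and on none of replicates 3 and 4, and 5 probes the other way. The part of brightness in these differences was not tested.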

How the data were processed

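RNA of 8 samples was hybridised to 1-colour Agilent arrays after amplification and Cy3 labelling, per the labels' protocols. The deposited intensity values are Agilent Feature Extraction 12.0.0.7 processed signals, linear, background-subtracted and detrended, per the file headers. The deposited series table held the same values and was not used.

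Outlier-flagged and control spots were left out, spots of a probe averaged, and log2 taken and reduced by each array's 75th percentile; the deposited intensity holds no log2 values. Of 41174 probes, 28223 were named through RefSeq accessions (GRCm38.p6). Kept were probes that at least 4 of 8 arrays flagged as well above background, with the brightest on average taken for each gene (17512 genes, 6360 with several). limma 3.58.1 in R 4.3.3 fitted genotype and side, with Benjamini-Hochberg adjustment over all genes, called under 0.05. The procedure was tested on simulated data. The small number of arrays limits the precision, and background correction and probe choice also moved values, as given below.

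The sides, gene lists and markers were chosen with earlier results of these data known. Named genes are Glis3, Thy1, 1 set of markers, the 10 genes of smallest p per direction (provisional symbols passed over, here and below), the 4 of smallest p per list and the 5 of smallest interaction p per direction. Dppa3, Brdt and Mybl1 were added for their values, and a few genes are not reported here. Same-numbered samples correlated across genotypes in their deviations from the genotype means (r = 0.16, 0.34, 0.18 and 0.13), over the limit of 0.1 for taking the numbers as pairs. WT replicate 3 with Glis3KO2 replicate 4 (0.14) and WT replicate 4 with Glis3KO2 replicate 3 (0.12) were also over it, and with the side removed r was 0.21 for numbers 1 and 2 and 0.02 for 3 and 4. Sides are contrasts between those numbers, so a replicate block could enter only as a random effect.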

Additional observations from a re-analysis of the deposited data

Results flagged for a closer look

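Among 366 groups of 4 arrays, 21 held an array far from the other 3, measured as the gap to its nearest neighbour over the whole range, against Dixon's critical value. Chance flags about 1 in 20 such groups. No explanation was weighed for any of them.

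WT replicate 4 had 87.6% of spots well above background, against 86.4% and 86.5% in the other arrays of replicates 3 and 4. For Thy1 it was at -0.028 and for Star at 1.13, the lowest of its side in both.

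WT replicate 1 was far above the rest of its side for the steroid genes Cyp11a1 (2.86), Hsd3b1 (5.35) and Star (2.93) and for the centred red blood cell list (0.63). It was far below for the neurofilament gene Nefm (-2.43).

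Glis3KO2 replicate 3 was low among replicates 3 and 4 in the centred Sertoli list (-0.16) and for Ctnna2 (-1.23). It was high there for Cdh16 (-0.999), Cpxm2 (-1.13) and Rarg (-2.38). Glis3KO2 replicate 4 was high in the centred lymphocyte list (0.33) and for Gzma (1.30).

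Among replicates 1 and 2, Glis3KO2 replicate 2 was high in the centred heat shock list (0.20), for the glycolytic enzyme Tpi1 (2.96) and for Rimkla (-3.77). It was low in the centred interferon list (-0.43) and for Ptprc (2.91). Glis3KO2 replicate 1 was low for Mro (-1.37).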

How the results depend on the processing

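No alternative that kept all 8 arrays called a gene after adjustment. Leaving out 1 array gave 0 to 15 called genes, 855 to 1466 higher and 1014 to 1491 lower at unadjusted p under 0.05, and 856 to 1825 for the interaction. Brightness ran from -0.77 to -0.48. With the random replicate block (consensus correlation 0.0128) 0 genes were called, with 1349 higher and 1431 lower. With normexp and the 75th percentile the counts were 356 and 709, within Glis3KO2 442 and 626, and with 1 row per probe 2985 and 2284. The median of undifferentiated spermatogonia was 0.26 with normexp, 0.29 with normexp and quantile normalization, 0.46 with the mean over probes, 0.81 within WT and 0.23 within Glis3KO2. Germ cells were at 1.39 within WT and 0.52 within Glis3KO2, and piRNA at 1.56 and 0.48, with 0.79 within slide 1 and 1.18 within slide 2. Macrophages were at -1.40 within WT, stroma at -0.27 within slide 1 and smooth muscle at -1.47 within slide 2. Without 1 array, list medians spanned 0.80 to 1.15 (germ), 0.79 to 1.15 (piRNA), 0.35 (without WT replicate 3) to 0.69 (undifferentiated), 0.57 to 0.84 (Sertoli), -1.29 to -0.72 (stroma), -1.07 to -0.74 (smooth muscle) and -1.05 to -0.64 (macrophages). Under alternatives 67 of 3915 named-gene values and 29 of 650 list medians had another sign than the reported value. With normexp these included the lists of red blood cells (-0.12), apoptosis (-0.15), oxidative phosphorylation (0.0067) and noncoding RNAs (0.040), and the Leydig list was at 0.03 within Glis3KO2, 0.09 without WT replicate 1 and 0.06 without WT replicate 4. Signs also turned for the nervous list (-0.018) and Elavl4 (-0.0064) with normexp, Junb with normexp and quantile normalization (-0.027) or the mean over probes (-0.27), the heat shock list within Glis3KO2 (-0.036) and Emcn within slide 1 (0.0076); the cause was not tested. Of the same values, 357 and 59 moved by more than the replicate spread. Within-slide and per-probe values were chosen after seeing the data.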

Other observations

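Cytosolic ribosomal protein genes were lower in replicates 3 and 4 for 34 of 40 measured members (43.5% of all genes were). Their median was -0.25 (-0.16 within WT, -0.33 within Glis3KO2), and Rpl10 differed by -0.75 (SE 0.24). Nuclear genes of oxidative phosphorylation were lower for 31 of 45, with a median of -0.15, -0.28 within Glis3KO2 and 0.05 within WT. At unadjusted p under 0.05, 3 of 40 and 2 of 45 were lower (limma), shares no larger than the 8.33% of all genes. Both lists were bright, at median levels of 4.44 and 2.06. In the brightest quartile of all genes 12.4% were lower at that threshold. Replication-dependent histone genes were higher for 17 of 19 measured members of 45 listed (56.5% of all genes were). Their median was 0.45 (0.37 within WT, 0.55 within Glis3KO2). With limma, 6 of 19 were higher at unadjusted p under 0.05 (7.87% of all genes) and 1 lower (8.33%). H1f1, a linker histone, differed by 0.96 without overlap, and H2bc4 went the other way at -0.94. Histone genes are near-identical copies, so their probes may share signal.

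Immediate early genes had a median of -0.30 (-0.38 within WT, -0.13 within Glis3KO2), with 18 of 28 lower. At unadjusted p under 0.05, 3 of 28 were higher (7.87% of all genes) and 3 lower (8.33%) (limma). The median was 0.02 within slide 1 and -0.49 within slide 2. Ier5 was at 2.23, 1.53, 1.87 and 2.07 in replicates 1 and 2 and at -0.34, 0.00, 0.97 and 1.12 in replicates 3 and 4, a difference of -1.49 (SE 0.29, limma adjusted p = 0.156), and Fosl2 differed by -1.25. Junb went the other way at 0.60, but was at -0.27 with the mean over probes. The glycolytic enzymes Pgk1 and Ldha differed by -0.89 and -0.71 without overlap, while their list had a median of -0.08 (-0.04 within WT, -0.23 within Glis3KO2). Cryab, a small heat shock protein of muscle, differed by -1.26 (SE 0.23, limma adjusted p = 0.131), and the co-chaperone Bag3 by -0.74. These 2 do not stand for their list of heat shock proteins and chaperones, in which 15 of 25 members were higher. The median of that list was 0.15 (0.16 within WT, -0.04 within Glis3KO2), and its members ran from -1.26 to 0.65.

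Haemoglobin genes varied widely within a side. Hbb-bt, an adult beta globin, was at 6.75, 4.45, 2.31 and 4.74 in replicates 1 and 2 and at 2.85, 2.44, 1.82 and 3.94 in replicates 3 and 4, a difference of -1.80 (SE 0.79). Globin genes have near-identical copies, and this probe may read several.

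The genotype comparison was also fitted with the sides in the model. The median residual variance over genes was 0.15 with the sides and 0.18 without them. Genotype differences at unadjusted p under 0.05 numbered 1714 with the sides and 1210 without, and after adjustment limma called 0 in both, with smallest adjusted p-values of 0.126 and 0.0676. This comparison was chosen after seeing the data.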
